A study of Mus musculus with 31 samples.

Results

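The response of wild-type macrophages to lipopolysaccharide (LPS) was read from 8 of the 31 spotted arrays of the series, those whose titles name wild-type macrophages with LPS set against mock. They come from 4 mice, each with an array in both dye orientations. Each array pairs RNA of stimulated cells with RNA of cells from the same mouse number given medium only (mock), and the deposited value is a log2 ratio of the pair, read here as LPS over mock. That direction is likely from the titles and from the rise of textbook LPS genes, but it is not stated. The macrophages were grown from the marrow of C57BL/6J wild-type mice aged 6 to 8 weeks, for 8 days in DMEM with 10% serum and 15% medium conditioned by L929 cells, which supplies CSF-1, and the LPS (from E. coli O111, re-purified) was given at 10 ng/mL for 2 hours. The groups used for comparison are MyD88-/- macrophages given the same LPS (7 arrays, 4 mice; the labels call the mice MyD88-deficient and give no allele) and wild-type macrophages given live log-phase E. coli, 1 bacterium per macrophage (8 arrays, 4 mice). All groups share the culture and the 2 hour exposure, and each dish is a bulk population, so fewer cells of a type and less RNA per cell cannot be told apart.

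LPS is the lipid of the outer membrane of Gram-negative bacteria, and macrophages sense it through the receptor TLR4 with CD14 and MD-2. TLR4 signals through the adaptor MyD88, which leads rapidly to the transcription factors NF-kB and AP-1 and to inflammatory cytokines, and through the adaptor TRIF, which leads to IRF3 and interferon genes. The first hours of the response also induce its own inhibitors, among them Tnfaip3 and the IkB proteins, and messages of resting macrophages decline.

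Of 13872 probes, 7219 had values in all 4 mice and 2120 in 3 of them, and these 9339 probes, which stand for 7534 named genes, were tested. An array carried between 7265 and 10497 values, and its median log2 ratio lay between -0.0851 and -0.000203. Across probes, the 2 dye orientations of a mouse correlated at 0.521, 0.394, 0.356 and 0.322 in mice 1 to 4, and the ratios of different mice at 0.337 to 0.495. The small number of arrays limits how precise a value is, and a mean over the mice had a median standard error of 0.212 on the log2 scale. Markers of macrophages had values (17 of the 19 on the array in at least 3 mice, including Csf1r, Cd68 and C1qa), but ratios give no levels, so the cell type of the label can be described no further. Of the 9 lists of markers of other blood and stromal cells, 44 genes were tested in all, and only Cd28, a T cell receptor, was called, at -1.10.

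LPS changed 375 of the 9339 probes (4.02%) at an adjusted p under 0.05, 246 of them higher (2.63%) and 129 lower (1.38%). Every one of the 375 had the same sign in all mice measured and in the means of both dye orientations. The rises were larger than the falls, with a median of 1.96 against -1.24 on the log2 scale (over all probes tested the median was -0.0389), and 50 probes rose 8-fold or more while 7 fell as much. The smallest change called was 0.788 on the log2 scale, and 262 probes at or above a 2-fold rise and 271 at or below a 2-fold fall were not called. Calls came almost all from probes with 4 mice, 367 of 7219 (5.08%), against 8 of 2120 (0.377%) with 3 mice.

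**Figure D1:**
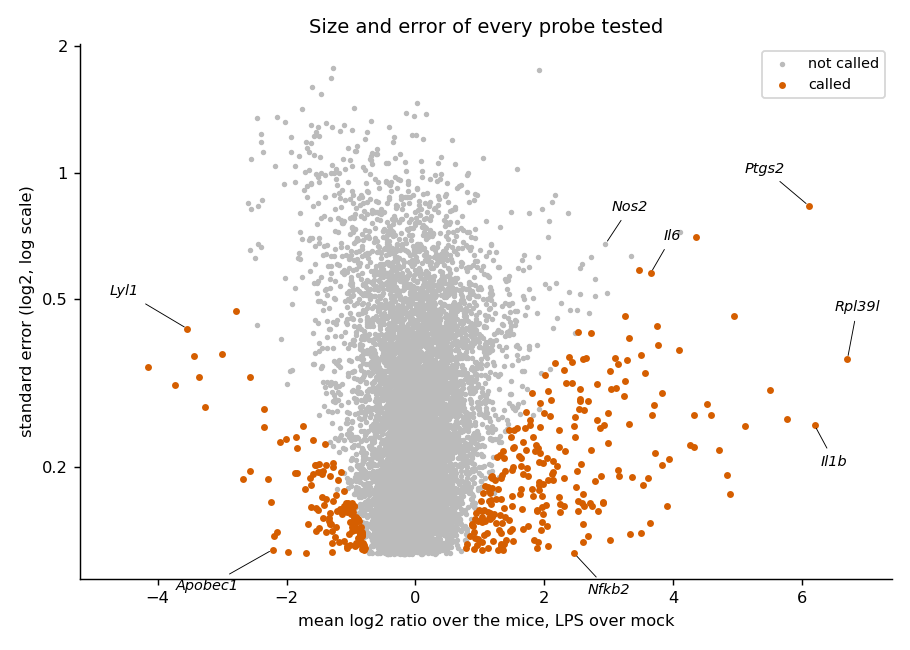
Mean log2 ratio of LPS over mock (horizontal axis) against its standard error (vertical axis, log scale) for the 9339 probes tested in 4 wild-type mice. Orange points were called at an adjusted p under 0.05. Called falls crowd near -1, while called rises reach 6.70, and probes of large error such as Nos2 were not called in spite of large means.

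The cytokines that carry the alarm to other cells stood among the largest rises. Il1b, the inflammasome-processed interleukin 1β (probe 10766), gave log2 ratios of 6.92, 5.81, 6.36 and 5.69 in mice 1 to 4, a mean of 6.19 ± 0.25 (SE, n = 4 mice, adjusted p = 0.00317), which is 73.1-fold. Il1a, whose product binds the same receptor, gave 5.63, 4.59, 5.47 and 6.33, with a mean of 5.50 ± 0.30 (adjusted p = 0.00371). Tnf, the cytokine that activates endothelium and NF-kB in neighbouring cells, gave 5.25, 4.56, 5.84 and 4.81, with a mean of 5.12 ± 0.25 (adjusted p = 0.00371). All mice stood high for these genes, and the lowest value was that of Tnf in mouse 2. The second probe of Il1b (11722) gave -0.52 and was not called (adjusted p = 0.141), so the probes of that gene disagree.

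Of 14 proinflammatory cytokines tested (18 on the array), 7 rose and none fell by limma, against 2.84% higher and 1.47% lower among all genes with 1 probe each. Their median log2 ratio was 3.26, against -0.0395 for all genes tested. Csf1, the growth factor on which macrophages depend, rose to 3.50 ± 0.14 with mice between 3.34 and 3.73 (adjusted p = 0.00317). Il15, which sustains natural killer and memory T cells, rose to 3.16 ± 0.19 (adjusted p = 0.00427). Among 5 anti-inflammatory cytokines, Il10, which restrains macrophage activation, rose to 4.52 ± 0.28, with mice at 5.08, 4.31, 5.01 and 3.69. Il1rn, the antagonist that blocks the interleukin 1 receptor, rose to 2.91 ± 0.16, and the 3 others were not called.

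Il6 and Il12b had values in too few MyD88-/- mice to be tested in every group, and they are described here from the wild-type mice. Il12b, the p40 chain of interleukins 12 and 23, gave 4.56, 3.39, 3.24 and 5.14, with a mean of 4.08 ± 0.38 (adjusted p = 0.0115). Il6, the cytokine of fever and the hepatic acute phase, gave 4.67, 2.90, 1.98 and 5.05, with a mean of 3.65 ± 0.58 (adjusted p = 0.043). Both rose in every mouse, and mice 1 and 4 stood above mice 2 and 3 for each. The call of Il12b ended without mouse 1 (adjusted p = 0.0777). That of Il6 ended without mouse 1, 2, 3 or 4 (0.171, 0.13, 0.0715 and 0.144), with only unswapped arrays (0.0689) and with floor values kept (0.067).

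**Figure D2:**
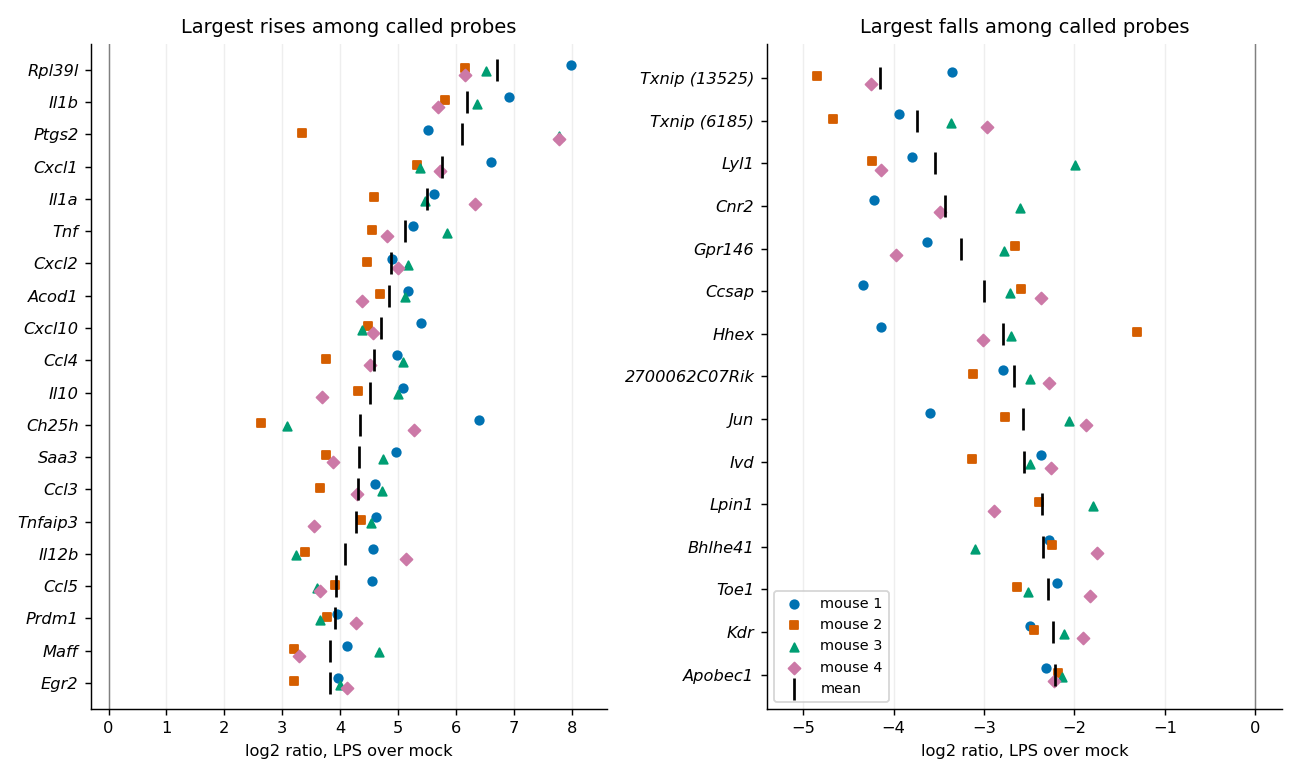
Log2 ratio of LPS over mock in each wild-type mouse for the 20 largest rises (left) and 15 largest falls (right) among called probes with a gene symbol. Symbols mark mice 1 to 4 and black bars their mean. Il1b, Tnf, Cxcl2 and Acod1 stand in narrow ranges, while Ptgs2 runs from 3.34 to 7.78 and Ch25h from 2.63 to 6.39.

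Chemokines, which call leukocytes out of the blood, rose as a second large group. Of 9 CXC chemokines tested 4 rose and 1 fell, with a median of 0.49, and of 14 CC and CX3C chemokines 8 rose and none fell, with a median of 1.61. The neutrophil attractants Cxcl1 and Cxcl2 reached 5.76 ± 0.26 and 4.88 ± 0.17 (adjusted p = 0.00367 and 0.00317). Cxcl2 gave 4.90, 4.46, 5.18 and 5.004 in mice 1 to 4, a narrow range. Cxcl10, an attractant of activated T cells induced by interferon and by NF-kB, gave 5.40, 4.47, 4.38 and 4.56, with a mean of 4.70 ± 0.22 (adjusted p = 0.00371). Cxcl16, a membrane-bound scavenger receptor and chemokine, rose less, to 0.96 ± 0.13 (adjusted p = 0.0292).

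Among the CC chemokines the macrophage inflammatory proteins Ccl4 and Ccl3 reached 4.58 ± 0.27 and 4.31 ± 0.22 (adjusted p = 0.00386 and 0.00371), and Ccl5, an attractant of T cells and monocytes, 3.93 ± 0.21. The monocyte attractants Ccl2 and Ccl7 reached 3.25 ± 0.32 and 2.54 ± 0.27 (adjusted p = 0.0128 and 0.0159). Ccl17, a ligand of CCR4, gave 5.17, 2.61, 3.42 and 3.77, with a mean of 3.74 ± 0.43 (adjusted p = 0.0181), so it rose in every mouse but with a wide spread. Ccl27a and Ccl9 rose to 1.89 ± 0.16 and 1.24 ± 0.17. The only chemokine to fall was Cxcl14, a constitutive chemokine of epithelia, at -1.16 ± 0.19 with mice at -0.88, -1.01, -1.01 and -1.73 (adjusted p = 0.0491). The genes of Cxcl1, Cxcl2 and Cxcl10 lie on chromosome 5, and those of Ccl2, Ccl3, Ccl4, Ccl5, Ccl7 and Ccl9 on chromosome 11.

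The promoters of rising genes were searched for motifs in the 250 bases before the start, on both strands, in sequences of RefSeq (GRCm38.p6). A kB site, the decameric element that NF-kB binds, was found in 25 of 173 promoters of called rises (14.5%), 7 of 93 of called falls (7.53%), 328 of 6076 of all tested genes (5.40%) and 1204 of all 27025 promoters in the table (4.46%). The AP-1 letters TGANTCA, which read alike on both strands, were in 13.9% of the rises, 9.68% of the falls and 6.96% of all tested genes. The interferon response element (GAAA, 2 bases of any kind and GAAA again) was in 5.78%, 1.08% and 3.37%, the CRE letters TGACGTCA in 3.47%, 1.08% and 2.24%, and TATAAA in 15.0%, 5.38% and 10.8%. These shares describe letters in a short window and say nothing of binding. The promoters below are shown because their genes rose among the most and hold kB letters, and that of Txnip because it fell most and holds none of the letters searched. Capitals mark the kB letters.

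Cxcl1, chr5:90890995-90891244, plus strand: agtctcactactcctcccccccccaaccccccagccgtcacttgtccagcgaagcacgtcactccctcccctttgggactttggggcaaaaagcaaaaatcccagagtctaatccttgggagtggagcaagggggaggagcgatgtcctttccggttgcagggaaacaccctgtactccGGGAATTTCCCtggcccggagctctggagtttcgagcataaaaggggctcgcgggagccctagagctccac
Cxcl2, chr5:90903649-90903898, plus strand: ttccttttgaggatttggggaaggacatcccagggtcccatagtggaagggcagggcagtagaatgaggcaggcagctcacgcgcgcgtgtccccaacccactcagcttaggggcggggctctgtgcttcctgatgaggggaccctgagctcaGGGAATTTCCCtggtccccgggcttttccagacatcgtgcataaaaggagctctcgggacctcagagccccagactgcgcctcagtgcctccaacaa
Cxcl10, chr5:92348890-92349139, minus strand: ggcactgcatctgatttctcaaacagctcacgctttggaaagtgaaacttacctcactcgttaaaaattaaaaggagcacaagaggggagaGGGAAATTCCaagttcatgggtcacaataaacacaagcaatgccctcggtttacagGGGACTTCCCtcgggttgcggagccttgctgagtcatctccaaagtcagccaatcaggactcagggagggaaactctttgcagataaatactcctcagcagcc
Il6, chr5:30012864-30013113, plus strand: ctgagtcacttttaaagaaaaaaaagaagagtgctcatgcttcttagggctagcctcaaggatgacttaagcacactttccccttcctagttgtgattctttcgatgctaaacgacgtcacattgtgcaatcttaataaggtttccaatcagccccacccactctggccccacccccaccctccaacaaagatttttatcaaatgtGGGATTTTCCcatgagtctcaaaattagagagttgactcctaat
Tnfaip3, chr10:19015411-19015660, minus strand: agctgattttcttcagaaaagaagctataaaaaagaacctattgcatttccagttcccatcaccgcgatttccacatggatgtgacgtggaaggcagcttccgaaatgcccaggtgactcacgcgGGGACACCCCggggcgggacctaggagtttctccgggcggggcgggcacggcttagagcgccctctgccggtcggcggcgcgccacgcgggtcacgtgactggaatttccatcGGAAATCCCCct
Txnip, chr3:96557707-96557956, plus strand: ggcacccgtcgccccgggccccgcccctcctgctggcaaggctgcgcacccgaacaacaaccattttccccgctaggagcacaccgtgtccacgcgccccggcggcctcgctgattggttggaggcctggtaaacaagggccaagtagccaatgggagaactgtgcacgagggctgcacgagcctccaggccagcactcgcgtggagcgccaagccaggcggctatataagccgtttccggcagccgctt

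In Cxcl1 the kB letters lie 71 to 62 bases before the start and in Cxcl2 97 to 88 bases before it, and in both they also match on the other strand, shifted by 1 base. Cxcl10 holds kB letters at 159 to 150 and at 103 to 94 bases, beside AP-1 letters at 74 to 68 and interferon response letters at 213 to 204. Il6 holds kB letters 44 to 35 bases before the start and AP-1 letters at 249 to 243. Tnfaip3 holds kB letters at 125 to 116 and, on the other strand, at 12 to 3 bases, and the second start of the gene in the table holds none. The windows of Il1b, Tnf, Il12b, Ptgs2 and Acod1 hold no kB letters, and those of Il1b, Tnf and Acod1 hold TATAAA within 31 bases of the start.

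The receptors that sense bacterial products moved less than the cytokines. Of 10 tested genes of LPS sensing and Toll-like receptors, 3 rose and none fell, with a median of 0.46. Tlr2, the receptor of bacterial lipoproteins, rose to 2.49 ± 0.18 with mice between 2.19 and 2.89 (adjusted p = 0.00604), and its partner Tlr1 to 1.67 ± 0.14 (adjusted p = 0.00946). Pycard, the adaptor of inflammasomes, rose to 1.35 ± 0.22. Tlr4, the receptor of LPS itself, gave -1.93, -0.69 and -2.08 in the 3 mice measured and was not called (mean -1.57, adjusted p = 0.117). Of 11 adaptors and kinases of the pathway, Myd88 rose to 1.38 ± 0.16 (adjusted p = 0.0182) and Peli1, a ubiquitin ligase of the pathway, to 3.28 ± 0.36 (probe 555, adjusted p = 0.0163) and 2.68 ± 0.14 at its second probe. The LPS co-receptor Cd14 had values in mice 2 and 3 alone, -0.82 and -0.60, and was not tested.

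Of 16 inhibitors and regulators of NF-kB tested 10 rose and none fell, with a median of 2.18, and of its 4 subunits tested 2 rose and none fell. Nfkb2, the p100 subunit of the alternative pathway, gave 2.42, 2.50, 2.48 and 2.45, a narrow range (SD 0.035). Its mean was 2.46, with a standard error of 0.12 by limma, which also draws on the spread of other probes (adjusted p = 0.00371). Its partner Relb rose to 2.31 ± 0.22 (adjusted p = 0.012). Rela, the p65 subunit of the main pathway, gave 0.87 and was not called (adjusted p = 0.071). A fit on all 16 mice of the series called Rela (adjusted p = 0.00445). The probes of Rel disagree. Probe 1595 gave -0.24 and was not called, while probe 12463 rose to 2.38 ± 0.36 (adjusted p = 0.0396).

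Tnfaip3, the ubiquitin-editing enzyme A20 that shuts the pathway down, gave 4.61, 4.36, 4.54 and 3.55, with a mean of 4.27 ± 0.23 (adjusted p = 0.00371). The IkB proteins Nfkbie and Nfkbib rose to 2.71 ± 0.16 and 2.14 ± 0.19, the atypical IkB protein Bcl3 to 2.22 ± 0.17 and the A20-binding protein Tnip1 to 2.31 ± 0.19. Nfkbia, the IkBα gene, had 2 mice with values (-0.29 and 2.10) and was not tested. The survival genes Birc3 (3.24 ± 0.46) and Bcl2a1a (2.92 ± 0.25), whose products restrain death of activated cells, rose too, as did Cflar (2.83 ± 0.16), which blocks caspase 8, and the proapoptotic Bcl2l11 (2.81 ± 0.31). Of 20 cell death genes 4 rose and none fell. Bcl2a1a belongs to a family of near-identical copies, so its value may include them.

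**Figure D3:**
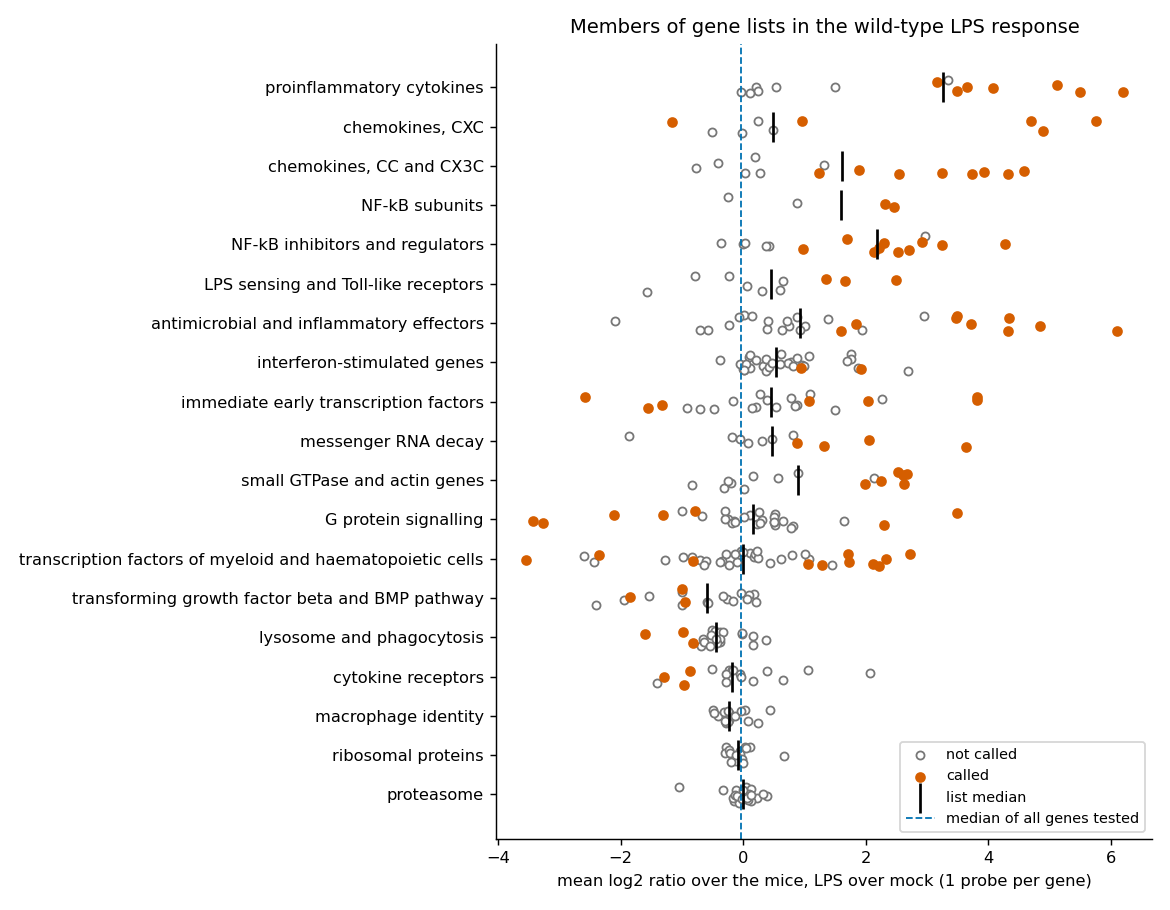
Mean log2 ratio of LPS over mock for the tested members of 19 gene lists (1 probe per gene, 4 wild-type mice). Filled points were called, black bars are list medians, and the dashed line is the median of all genes tested (-0.0395). Cytokine, chemokine and NF-kB lists reach to the right, lysosome and transforming growth factor lists hold falls only among their called members, and macrophage identity, ribosomal and proteasome lists hold none.

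Immediate early transcription factors moved both ways, with 4 of 22 tested higher and 3 lower. Egr2 gave 3.96, 3.21, 3.99 and 4.11, with a mean of 3.82 ± 0.20 (adjusted p = 0.00371). Junb, an AP-1 subunit, rose to 2.03 ± 0.15 (adjusted p = 0.00596) and Klf2 to 1.08 ± 0.18. Jun, the founding subunit of AP-1, fell in every mouse, to -3.59, -2.77, -2.06 and -1.88, with a mean of -2.57 ± 0.33 (adjusted p = 0.0242). Klf4 and Klf10 fell to -1.55 ± 0.14 and -1.33 ± 0.19. Egr1 gave 0.88 (adjusted p = 0.106), Myc 2.26 with mouse 4 at 4.04 (adjusted p = 0.0882), and Fos -0.70 at 1 probe and 1.10 at the other, with no call for any of them. A fit on all 16 mice of the series called Egr1 (adjusted p = 0.00576) and Myc (0.00305). Requiring values in all 4 mice also gave a call for Myc (0.0473).

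Among 39 transcription factors of myeloid and haematopoietic cells, 8 rose and 3 fell. Tfec, a macrophage relative of Mitf, rose to 2.73 ± 0.22, and Mitf itself to 1.71 ± 0.22. Ets2, which acts downstream of MAP kinases, rose to 2.12 ± 0.19 and Cebpd, an acute-phase factor, to 1.29 ± 0.14 (adjusted p = 0.0163). Prdm1, the repressor Blimp-1, which was in no list, gave 3.94, 3.77, 3.66 and 4.27, with a mean of 3.91 ± 0.16 (adjusted p = 0.00317). Of the falls in the list, Lyl1, a basic helix-loop-helix factor of blood progenitors, gave -3.80, -4.23, -1.99 and -4.13, with a mean of -3.54 ± 0.43 (adjusted p = 0.0203). Bhlhe41 fell to -2.34 ± 0.25 and Cebpg, a partner of other C/EBP factors, to -0.82 ± 0.13 (adjusted p = 0.0418). Hhex, a homeobox gene of haematopoietic cells that was in no list, fell to -2.79 ± 0.47 (probe 9448, adjusted p = 0.049), and its second probe gave -2.60 with no call. The Lyl1 call ended without mouse 1, 2 or 4 (adjusted p = 0.124, 0.0965 and 0.109) and the Hhex call without mouse 1, 2, 3 or 4 (0.142, 0.0515, 0.174 and 0.183). With all mice kept, the Hhex call also ended with unswapped arrays alone (0.185), floor values kept (0.109), values in 2 or more mice (0.078), robust eBayes (0.0545) and the dye term with a random block (0.0539).

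Rises were also found in the lists of messenger RNA decay and of MAPK phosphatases and feedback. Of 11 genes of messenger RNA decay 4 rose and none fell. Noct, a circadian relative of deadenylases, gave 3.81, 3.47, 3.45 and 3.84 at probe 2736 and a mean of 3.36 at its second probe (adjusted p = 0.00371 for the latter). Btg2 and Btg1, partners of the deadenylase complex, reached 2.05 ± 0.30 and 1.33 ± 0.13. Zfp36, whose product tristetraprolin destroys Tnf messages, rose by less, 0.88 ± 0.15 (adjusted p = 0.0477). Of 9 tested MAPK phosphatases and feedback genes 3 rose, namely Gadd45b (3.53 ± 0.18), Gem (3.31 ± 0.40) and Plk2 (1.35 ± 0.13). No phosphatase was among them, and the phosphatase gene Dusp14 gave 1.92 from 3 mice and was not called (adjusted p = 0.052). An effect on kinases was not tested.

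Interferon genes held few calls at 2 hours, with Irf1 the clearest. It rose to 3.61 ± 0.19, with mice at 4.06, 3.31, 3.30 and 3.76 (adjusted p = 0.00371), and was the only called member among 8 interferon regulatory factors. Of 32 interferon-stimulated genes 2 rose, Gbp3 (1.92 ± 0.18) and Ifit2 (0.94 ± 0.16), and none fell, with a list median of 0.54 (6.25% called higher, against 2.84% of all genes). At an unadjusted p under 0.05, 15 of the 32 stood higher and 1 lower, against 813 and 811 of 7534 genes in all, and the fit on all 16 mice called 7 higher. Gbp2 gave 2.69 with mouse 1 at 4.39 (adjusted p = 0.0517) and Ifnb1, interferon β, gave 0.93, 0.11, 0.60 and 1.17 (adjusted p = 0.165). Irf8 gave -1.33 (adjusted p = 0.0517). Both Gbp2 and Irf8 were called in several alternatives, among them the fit on all 16 mice (adjusted p = 0.000293 and 0.000547) and values in all 4 mice (0.0254 and 0.0244). Jak2, a kinase of cytokine receptors, rose to 3.32 ± 0.25. None of 9 SOCS and STAT genes was called by limma with 1 probe each, 2 of them stood higher at an unadjusted p under 0.05, and the fit on all 16 mice called 2. Socs1 gave 1.58 with mouse 1 at 2.88 and the others between 1.04 and 1.25.

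Effector genes of inflammation and killing held 9 rises and no fall among 27 tested, with a median of 0.93. Acod1, the enzyme that makes itaconate, gave 5.18, 4.69, 5.11 and 4.38, with a mean of 4.84 ± 0.19 (adjusted p = 0.00317). Saa3, an acute-phase serum amyloid, rose to 4.33 ± 0.27, and Clec4e, the lectin Mincle that binds mycobacterial cord factor, to 3.72 ± 0.22. Gpr84, a receptor of medium-chain fatty acids, rose to 3.50 ± 0.37. Ch25h, which makes 25-hydroxycholesterol, gave 6.39, 2.63, 3.08 and 5.28, with a mean of 4.35 ± 0.70 (adjusted p = 0.045). Its call ended without mouse 1, 2, 3 or 4 (0.133, 0.0888, 0.126 and 0.174), with swapped arrays alone (0.104) and with floor values kept (0.0723). Nos2, the inducible nitric oxide synthase, gave 4.95, 3.80, 1.60 and 1.44 and was not called (adjusted p = 0.0981), mice 1 and 2 standing above mice 3 and 4. Several alternatives called Nos2, among them the fit on all 16 mice (adjusted p = 0.00212) and swapped arrays alone (0.0158).

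Some surface molecules that talk to lymphocytes rose as well, while most members of their lists were not called. Of 18 TNF superfamily ligands and receptors 5 rose (27.8%, against 2.84% of all genes) and none fell, with a median of 0.21. Tnfsf4, the OX40 ligand, reached 3.76 ± 0.39, and Fas, the death receptor, 3.67 ± 0.27 (adjusted p = 0.00604). Of 23 costimulation and antigen presentation genes 4 rose (17.4%), with a list median of 0.27. They were Icosl (3.70 ± 0.28), Vcam1 (3.10 ± 0.36), Cd83 (3.02 ± 0.13) and Cd274, which encodes PD-L1 (1.67 ± 0.23). Cd83, a marker of matured antigen-presenting cells, gave 3.02, 2.85, 3.16 and 3.03. Of 19 matrix protease and adhesion genes 4 rose, with the collagenase Mmp13 at 3.24 ± 0.30 and the integrins Itgav and Itga5 at 1.85 ± 0.22 and 1.29 ± 0.13.

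Genes of small GTPases and actin rose in 6 of 15 tested and fell in none, with a median of 0.90. Marcksl1 (2.68 ± 0.29) and Marcks (1.98 ± 0.15 at probe 3849 and 1.89 at probe 7206) encode actin-binding substrates of protein kinase C. Ehd1 (2.61 ± 0.15) acts in endosome recycling, and Cdc42ep4 (2.53 ± 0.16) encodes an effector of Cdc42. Actb gave -0.19 (adjusted p = 0.501). Among 14 genes of glycolysis and hypoxia 1 rose and 1 fell (7.14% each), against 2.84% higher and 1.47% lower among all genes. Of 17 genes of sterol and lipid metabolism 2 fell (11.8%) and none rose. Hk2, a hexokinase, rose to 1.67 ± 0.19. Sod2, the mitochondrial superoxide dismutase, rose to 2.78 ± 0.18 (adjusted p = 0.00477), and Hmox1, the haem oxygenase, fell to -1.32 ± 0.15 (adjusted p = 0.0165). The arginine transporter Slc7a2 rose to 2.47 ± 0.24.

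Txnip, an inhibitor of thioredoxin that also limits glucose uptake, had the largest falls of any named probes. Probe 6185 gave -3.94, -4.67, -3.37 and -2.97, with a mean of -3.74 ± 0.31 (adjusted p = 0.00873), and probe 13525 gave -3.36, -4.85 and -4.24 in the 3 mice measured, with a mean of -4.15 ± 0.35 (adjusted p = 0.0165). Its promoter is printed above. Of 30 G protein signalling genes 5 fell and 2 rose. The receptors among them moved both ways, since Gpr84 (3.50) and Gpr132 (2.30) rose while Cnr2 and Gpr146 fell. The cannabinoid receptor Cnr2 gave -4.21, -2.60 and -3.48 in mice 1, 3 and 4 (mean -3.43 ± 0.37, adjusted p = 0.0292), and the orphan receptor Gpr146 fell to -3.26 ± 0.28. The Cnr2 call ended without any 1 mouse, and the lowest adjusted p was 0.0518, without mouse 2, which has no value. Rgs2, a brake on Gq signalling, fell to -2.11 ± 0.23, the adenylate cyclase Adcy7 to -1.30 ± 0.14, and the G protein subunit Gng2 to -0.79 ± 0.13.

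Some lists held falls and no rise among their called members, while 1.47% of all genes were called lower. The list with the largest share of falls was that of solute carriers, with 3 falls and 1 rise among 14 tested. Of 18 genes of the transforming growth factor beta and BMP pathway 3 fell and none rose, with a median of -0.58. Id1, a BMP target, gave -2.38, -2.07, -1.61 and -1.32, with a mean of -1.84 ± 0.22 (adjusted p = 0.0203), Id3 gave -0.99 ± 0.16, and Ski, a corepressor of Smads, -0.95 ± 0.15. Of 21 lysosome and phagocytosis genes 3 fell and none rose, with a median of -0.45, namely Tfeb, the master factor of lysosome genes (-1.60 ± 0.23), the cathepsin Ctsl (-0.99 ± 0.14) and Psap, the precursor of saposins (-0.83 ± 0.14, with its second probe at 0.31 and not called). Of 17 cytokine receptors 3 fell and none rose, namely Il6ra (-1.29 ± 0.13), Il7r (-0.96 ± 0.16) and Csf2rb (-0.87 ± 0.14). The stress factors Ddit3 and Atf4 fell to -2.01 ± 0.23 and -0.99 ± 0.15. Other large falls were those of Kdr, a VEGF receptor (-2.24 ± 0.16), Apobec1, a cytidine deaminase (mice between -2.14 and -2.32, mean -2.22 ± 0.13, adjusted p = 0.00386), and Ivd, of leucine breakdown (-2.56 ± 0.20, with its second probe at 0.77 and not called).

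Genes of macrophage identity held no call. By limma none of 17 tested was called, with a list median of -0.24 and a range from -0.50 to 0.44. Among all genes 2.84% were called higher and 1.47% lower, so no call in so short a list says little of its members. At an unadjusted p under 0.05, 1 of them was higher and 3 were lower, against 813 and 811 of 7534 genes in all. The fit on all 16 mice of the series called 2 lower. Csf1r gave -0.28, C1qa -0.41, Fcgr1 -0.47 and Cd68 -0.50, the last with mice between -0.37 and -0.65. None of 16 ribosomal proteins and none of 23 proteasome genes was called by limma either, with medians of -0.0861 and 0.0056, and none stood at an unadjusted p under 0.05.

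The largest rise of all was that of Rpl39l, a paralogue of the ribosomal protein Rpl39. It gave 7.99, 6.15, 6.52 and 6.15, with a mean of 6.70 ± 0.36 (adjusted p = 0.00371), and stood at 6.62 on unswapped and 6.78 on swapped arrays. Rpl39 itself gave -0.30 and was not called (adjusted p = 0.312). A cross-reaction of the probe was not tested. Atp5o, a subunit of ATP synthase, rose to 3.15 ± 0.20 (adjusted p = 0.00427), and no other of 24 respiratory chain genes was called. Prpf8, the core protein of the spliceosome, gave 2.97, 2.89, 3.24 and 2.56, with a mean of 2.92 ± 0.16 (adjusted p = 0.00371), while of the other 24 spliceosome genes Sf3a3 rose to 0.92.

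A rise was followed more often than usual by a rise at the next probe number. Of 117 named and unnamed called probes at 4-fold or more, 87 had a tested next probe, and 16 of those (18.4%) stood above a log2 ratio of 1. The share was 12.7% for the previous number, 5.56% and 7.32% for the second next and second previous, and 5.28% among all probes tested. Across probes the correlation of neighbouring numbers was 0.092. Pairs include Prpf8 and Trappc8 (2.92 and 2.82), Tnfaip3 and Has3 (4.27 and 3.10), Il1b and Timm13 (6.19 and 4.10), Il1rn and Btg2 (2.91 and 2.05), Gadd45b and Pde6a (3.53 and 2.79), Nfkbie and Ccr3 (2.71 and 2.48) and Rnf19a and Sele (2.14 and 2.43). Whether probe numbers follow spot positions is not given in the sources used here, and its part in the values of Trappc8, Btg2, Sele and Ccr3 was not tested. These pairs were singled out after their values were seen.

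Of the 9339 probes, 2014 lacked values in 3 mice of at least 1 other group, and 17 of them (0.844%) were called, 14 higher and 3 lower, against 358 of 7325 (4.89%) among those measured in every group. Their median standard error was 0.394 against 0.186. Ptgs2, the cyclooxygenase 2 of prostaglandin synthesis, gave 5.51, 3.34, 7.77 and 7.78, with a mean of 6.10 ± 0.83 (adjusted p = 0.0296). Mouse 2 stood lowest and mice 3 and 4 highest, and its call ended without mouse 1, 3 or 4 (0.135, 0.123 and 0.123) and with floor values kept (0.0516). Maff, a small Maf factor, gave 4.12, 3.21, 4.67 and 3.28, with a mean of 3.82 ± 0.30 (adjusted p = 0.00723, and 0.0597 without mouse 1). Hspa1a, an inducible heat shock protein with a near-identical copy, rose to 2.99 ± 0.27.

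The other rises of this kind had smaller means. Trappc8, of vesicle tethering, gave 2.82, and the endothelial selectin Sele 2.43 from 3 mice. Lox, the lysyl oxidase of matrix, gave 1.96, the spindle protein Tpx2 1.82, the syntaxin Stx6 1.78, the tissue factor F3 1.32 and 2610005M20Rik 1.18. The second probe of F3 gave -0.70 and was not called. Among falls, Lpin1, a phosphatidate phosphatase, gave -2.36 from 3 mice, and Toe1 -2.29, with its second probe at -0.13 and not called.

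**Figure D4:**
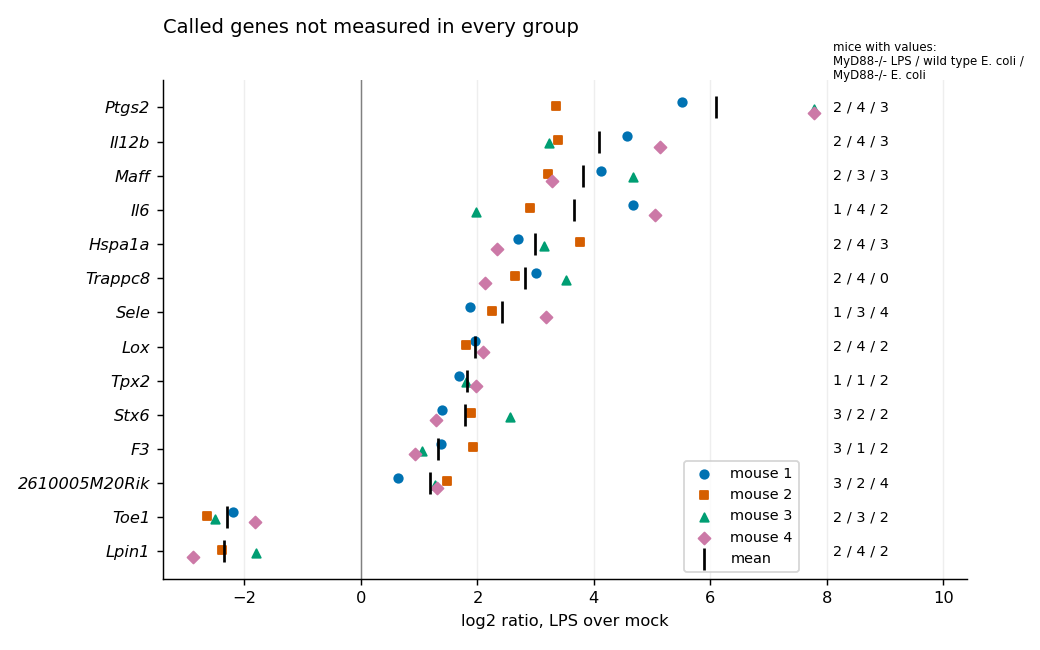
Log2 ratio of LPS over mock by wild-type mouse for the 14 named genes that were called but had values in fewer than 3 mice of another group. Numbers at the right give mice with values in the 3 other groups. Ptgs2, Il12b, Maff and Il6 stand at the top, with values in at most 2 MyD88-/- mice given LPS.

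Set against MyD88-/- macrophages given the same LPS, 4 of 8090 probes (0.0494%) differed, 3 of them with a lower ratio without MyD88 (0.0371%). At an unadjusted p under 0.05 there were 652 (8.06%). Cebpd stood between 1.06 and 1.49 in wild-type mice and between -1.42 and -0.99 in MyD88-/- mice, a difference of -2.47 ± 0.18 (SE, n = 4 mice per genotype, adjusted p = 0.00408). Prpf8 gave between 2.56 and 3.24 against 0.46 to 0.88 (difference -2.29 ± 0.20, adjusted p = 0.00887). Plaur, the urokinase receptor, gave 1.91, 1.65, 1.93 and 1.87 against 0.34, 0.000357, 0.49 and 0.22 (difference -1.58 ± 0.17, adjusted p = 0.0324), at probe 2321. Its second probe did not rise in wild-type cells (0.09, 3 mice, not called). The fall of Txnip at probe 13525 was smaller without MyD88, with MyD88-/- mice between -0.998 and -0.298 (difference 3.58 ± 0.37, adjusted p = 0.0388). In none of these genes did the groups overlap, but the call of Plaur ended without each of the 8 mice in turn, that of Txnip without 7 of them and that of Prpf8 without 3. With unswapped arrays alone the adjusted p was 0.0697 for Prpf8 and 0.0933 for both Plaur and Txnip, and with floor values kept it was 0.0967 for Txnip.

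Of 145 named called probes tested for this difference, 46 had mouse values that did not overlap between the genotypes, against 6.85% of all probes tested. These probes were named mostly for their wild-type values, but the rule also named called genotype differences without overlap. The shares are therefore no test of a genotype difference. Ccl17 gave between -0.89 and 0.40 in MyD88-/- mice (difference -3.84 ± 0.54, adjusted p = 0.066) and Cxcl2 between 1.56 and 3.03 (difference -2.51 ± 0.36, adjusted p = 0.066). Other strongly rising genes were not called. Acod1 differed by 0.62 ± 0.32 (adjusted p = 0.659), Cxcl10 by 0.65 ± 0.41 (adjusted p = 0.692), Irf1 by 0.72 ± 0.42 (adjusted p = 0.67) and Nfkb2 by 0.02 ± 0.26 (adjusted p = 0.986). A p that misses the threshold does not show that the genotypes respond alike.

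**Figure D5:**
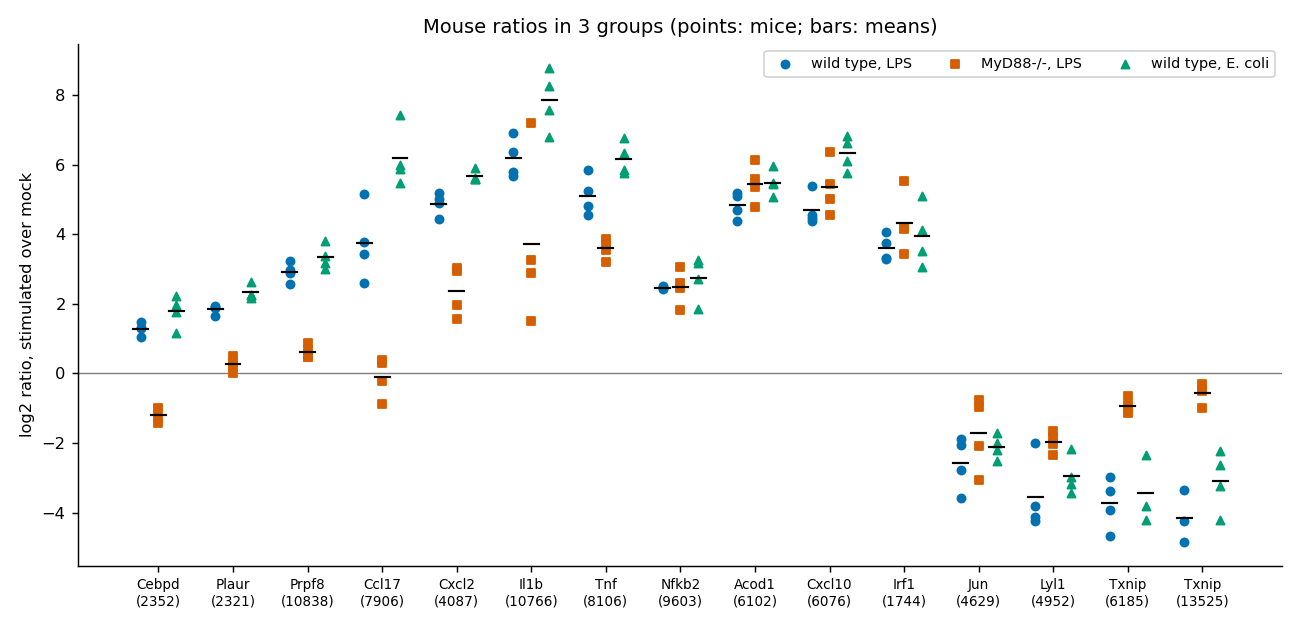
Log2 ratio of stimulated over mock cells by mouse for 15 probes in wild-type cells given LPS (circles), MyD88-/- cells given LPS (squares) and wild-type cells given E. coli (triangles). Bars are group means. Cebpd lies above 0 in wild-type mice and below 0 in MyD88-/- mice, and the 2 Txnip probes fall below -2 only in wild-type cells among the mice shown.

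Set against wild-type macrophages given live E. coli, limma called none of 7892 probes (0.0%), 319 stood at an unadjusted p under 0.05 (4.04%), and the smallest adjusted p was 0.999. Of 152 named called probes, 18 did not overlap between the stimuli, against 2.84% of all probes. The named probes were picked through calls in the wild-type LPS mice, so these shares are no test of a stimulus difference. Il1b averaged 7.86 with bacteria and 6.19 with LPS (difference 1.67 ± 0.45), Cxcl10 6.34 and 4.70 (1.63 ± 0.32), and Ccl17 6.20 and 3.74 (2.46 ± 0.59). Whether the mock samples of the same mouse number are shared between the stimuli is not given in the sources used here.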

How the data were processed

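RNA of stimulated and mock macrophages was hybridised in the 2 dyes of spotted arrays. Per the labels, slides were read on a GenePix 4000B scanner, quantified in GenePix Pro 3.0 and analysed in BASE and GeneSpring. The deposited values are log2 ratios made by the authors, and the background correction, normalization, spot filter and direction are not given in the sources used here. Values at -6.64, which is log2 of a hundredth, were taken as missing, and the 2 orientations of a mouse were averaged. Probes with values in 3 or more of the 4 wild-type LPS mice entered limma 3.58.1 (R 4.3.3, lmFit and eBayes against 0), with Benjamini-Hochberg adjustment over all 9339 probes and a call under 0.05. The 2 differences between groups were fitted likewise. All p are 2-sided, and each error is limma's standard error. The labels number mice, and whether a number is the same animal across stimuli is not given.

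Of the probes, 11480 had 1 gene symbol, 50 several and 2342 none, by the platform table, updated by Entrez ID. The probe with values on most arrays stands for a gene, and ties go to the lower ID, so the Rel probe named first was chosen by its ID. Genes were named by rule, namely the 20 largest rises and 15 largest falls, the 12 rises and 8 falls largest among probes not measured in every group, the 4 members of smallest p and any called member of each of 41 lists and 9 lists of markers of other cells, called differences, and fixed genes. Members and lists were chosen with earlier results of these data known. Of the 156 named probes called, 36 kept the call without any 1 mouse. Alternatives covered floor values, dye orientation, missing values, centring, scaling, the fit and single mice. The fits of the wild-type response and of the genotype difference were tested on simulated data, and the other steps were not. At a simulated log2 change of 1 they recovered 20% and 28% of changed probes, and at 2 they recovered 66% and 70%. False calls in the response fit numbered 9, beside 10, 33, 41 and 42 probes recovered at log2 changes of 1 to 4 (50 changed at each). In the genotype difference fit they numbered 16, beside 14, 35, 42 and 46 recovered. Plots used matplotlib 3.10.9 under python 3.11.15.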

Additional observations from a re-analysis of the deposited data

Results flagged for a closer look

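A mouse stood far from the other 3 in 9 of 169 probes checked, by Dixon's ratio at the 95% level, which chance gives in about 1 of 20. The 169 had values in 4 mice and came from the named probes called and from 21 named probes not called. Other named probes were not checked. Mouse 1 stood high for Tfec (3.43) and Socs1 (2.88). Mouse 2 stood low for Nfkbie (2.30). Mouse 3 stood high for Bcl10 (1.30), low for Gpr132 (1.08), and furthest below 0 for Cd28 (-1.29) and Slc3a2 (-1.28). Mouse 4 stood low for Ccl9 (0.80) and Cxcl14 (-1.73).

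The genotypes differed in their response to LPS, by limma's test of the difference itself, at 4 probes. MyD88-/- minus wild-type ratios were -2.47 for Cebpd, -2.29 for Prpf8, -1.58 for Plaur (probe 2321) and 3.58 for Txnip (probe 13525).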

How the results depend on the processing

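Alternatives were examined for the 156 named probes called and for 21 named probes not called, and none of these changed direction. Other named probes were not examined in this way. Of the 156 named probes called, 100 kept the call in every alternative that used all mice and 35 in every alternative. Leaving out 1 mouse left between 59 and 110 called probes (54 to 91 higher, 5 to 19 lower), with mouse 1 giving the fewest, and 69 of the named probes called lost the call without each mouse in turn. The probes that kept it without any 1 mouse include Il1b, Il1a, Tnf, Cxcl1, Cxcl2, Cxcl10, Ccl3, Ccl4, Ccl5, Il10, Acod1, Tnfaip3, Nfkb2, Irf1, Rpl39l and Apobec1. Of 375 reported calls, 365 were shared with the fit on all 16 mice, which called 1128 (556 higher, 572 lower). A fit on the 8 arrays that took dye as a term and mouse as a random block called 919 (465 and 454), both orientations required 978 of fewer probes (481 and 497), values in all 4 mice 677 (371 and 306), values in 3 mice of all 4 groups 653 (353 and 300), and values in 2 or more mice 234 (173 and 61). With floor values kept 252 were called, 70 of them lower. Unswapped arrays alone gave 275 and swapped arrays 462. The cause of these shifts was not tested. Calls at 2-fold or more numbered 231 higher and 90 lower, so falls were fewer, and the majority turned to falls in the 16-mouse fit and with both orientations required. For the dye term, limma called 0 of 9133 probes (752 at an unadjusted p under 0.05).

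The genotype difference gave 4 calls, 21 with all 16 mice, 1 with unswapped arrays alone, and 1 to 3 without 1 mouse. Cebpd kept its call in all of these. Prpf8 lost it without MyD88-/- mouse 1 or 3 or wild-type mouse 2 (adjusted p = 0.0653, 0.0502 and 0.0575), Plaur without each mouse (0.0686 to 0.139), and Txnip without each mouse but wild-type mouse 1 (0.0525 to 0.172). The stimulus difference gave 0 calls in limma under every alternative. Mouse number as a replicate block also gave 0. Same-number deviations correlated between -0.074 and 0.0509, and 0 of 4 matched their own number best. The residuals of the arrays of a mouse correlated at only 0.0548. These values therefore cannot tell whether the numbers pair the samples.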
